A study of Mus musculus with 4 samples.

Results

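Cohesin and CTCF shape the folding of chromosomes, and the RNA of 10 of their genes was followed here in mouse embryonic stem cells before and after they came to maintain telomeres without telomerase. The genes were chosen by name, with earlier results of these data known. They are *Smc1a*, *Smc3* and *Rad21*, *Stag1* and *Stag2*, *Nipbl*, *Wapl*, *Pds5a* and *Pds5b*, and *Ctcf*, and each symbol was matched exactly to 1 of the 53379 genes in the deposited tables. All libraries came from DKO741, a *Terc* knock-out line made from E14 cells by targeting both alleles of the telomerase RNA gene in turn, with the neo cassette removed by adenoviral Cre between the steps. Both groups therefore lack *Terc*, and no wild-type library was analysed here. Pre-ALT cells at population doubling 100 (PD100) gave 2 libraries, and post-ALT cells at population doubling 800 (PD800), long after alternative lengthening of telomeres (ALT) had begun, gave 2 libraries. Cells were grown without feeders before RNA extraction. Both time points are of 1 line, so the comparison cannot tell the time in culture from the ALT state or from what else was selected in this line.

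Cohesin is a ring of SMC1A, SMC3 and the kleisin RAD21, to which 1 of the STAG subunits is bound. NIPBL loads the ring and drives the extrusion of DNA loops, WAPL opens the ring and releases it from chromatin, and the PDS5 proteins bind the ring and take part in its release, its acetylation and the halting of loops. CTCF, a zinc finger protein, binds insulator sites and stops the extruding ring there, which sets loop anchors and domain borders. In the study, a CTCF-binding insulator lies inside mTALT, the subtelomeric sequence that these cells copied to their chromosome ends, and this makes the supply of CTCF and cohesin transcripts a question for the data.

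The 4 libraries held between 32454121 and 38492149 expected counts, which are RSEM's estimates of read pairs per gene. *Terc* itself was at an expected count of 1 in 1 PD100 library (replicate 1) and at 0 elsewhere, below a floor of 3 counts everywhere. Levels are given as CPM, counts scaled to library size after TMM correction, unless TPM is named, and TPM also divides by transcript length. Of 8 embryonic stem cell markers, all 8 were tested, 4 were higher in PD800 cells and 0 were lower. Markers of other cells moved with the groups. Of 8 primitive endoderm markers, 8 were lower in PD800 cells, and their summed level was 747 to 799 CPM in PD100 libraries and 104 to 105 CPM in PD800 libraries. Most of that sum was *Lama1*, a laminin gene, and without it the sum was 146.3 and 125.6 CPM at PD100 and 10.46 and 10.8 CPM at PD800. Of 8 fibroblast markers, 5 were lower, and their sum was 50.4 to 72.4 CPM against 14.8 to 15.7 CPM. None of either list was at 0 in all 4 libraries. The part of these cell states in the results that follow was not tested, and in bulk RNA a shift in the kinds of cells cannot be told apart from a shift within each cell.

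Of the 10 genes, 2 rose and 2 fell from PD100 to PD800 at an adjusted p under 0.01, and 6 did not pass (edgeR's quasi-likelihood test, Benjamini-Hochberg adjustment over all 19148 tested genes). The 2 that rose were *Pds5b*, by 2.27-fold, and *Stag1*, by 1.37-fold, and the 2 that fell were *Stag2*, 1.54-fold lower, and *Smc3*, 1.38-fold lower. All 10 passed the filter on low counts, and the lowest of them lay at percentile 92.6 of mean level among tested genes. Of all tested genes, 28.5% passed the same rule, 13.1% as higher and 15.4% as lower. Higher genes were thus 46.1% of the calls, against 23.4% on the log2(TPM + 1) scale, where the median of all tested genes was -0.12. Among the 1415 tested genes at or above the mean level of the lowest of the 10 (111.8 CPM), 33.1% passed. The 4 of 10 that passed are close to these shares, so nothing is read from their number. The median log2 fold change of the 10 was 0.10, against 0.01 for all tested genes, and the median absolute log2 fold change was 0.30 against 0.45. Only *Pds5b* of the 10 also exceeded a 2-fold change, which 15.1% of all tested genes did at the same adjusted p, 6.28% as higher and 8.81% as lower. In 7 of the 10, the CPM values of the groups did not overlap, as in 73.7% of all tested genes. The summed level of the 10 was 1613 and 1693 CPM at PD100 and 1716 and 1722 CPM at PD800. The shifts ran in both directions, and *Pds5b* had the largest.

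**Figure D1:**
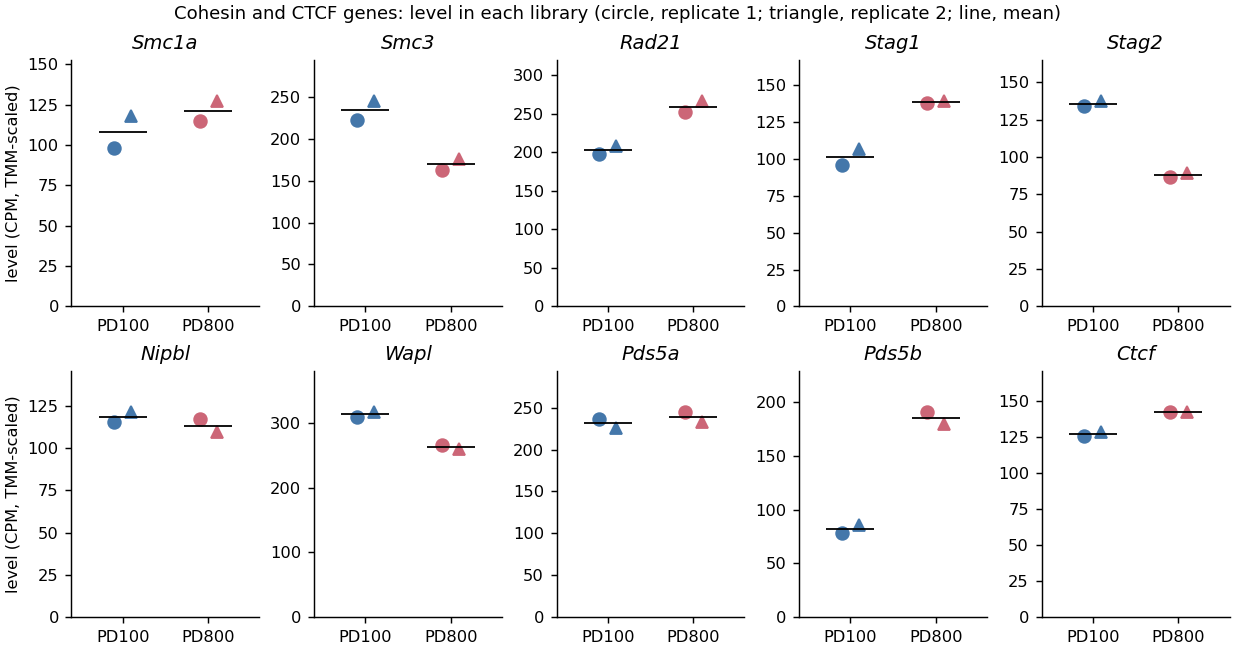
Level of each of the 10 genes in CPM (vertical axes, each starting at 0) in the PD100 libraries (blue) and the PD800 libraries (red), with circles for replicate 1, triangles for replicate 2 and a line at each group mean. *Pds5b* stands apart, with PD800 libraries at 191.1 and 179.9 CPM above PD100 libraries at 78.31 and 85.48 CPM, while *Stag1* and *Stag2* move in opposite directions.

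RefSeq promoters (GRCm38.p6, 250 bases before to 50 after the annotated start) were matched for 7 of the 10 genes, all except *Rad21*, *Stag2* and *Nipbl*. They are GC-rich, with 58.33% to 80.33% G and C against a median of 52.67% over all 32851 promoters of this length, and with 23 to 55 CG sites against a median of 7. The promoters were read for 6 motifs on both strands, chosen after the sequences were seen. The letters GCCATNTT, a core of the YY1 motif, were found in 4 of the 7 promoters and in 6.05% of all promoters. CCAAT was found in 4 of the 7 and in 37.41% of all, GGGCGG, the GC box, in 7 of the 7 and in 35.66%, GCGCANGC, the core of the NRF1 motif, in 3 and in 9.95%, TTTGAA, the core of the CHR element of cell cycle promoters, in 2 and in 17.89%, and CACGTG, the E-box, in 0 and in 7.15%. No CCAAT match overlaps a GCCATNTT match in the promoters shown. The 4 promoters with the YY1 letters are shown because they belong to 2 genes that rose (*Stag1* and *Pds5b*), 1 that fell (*Smc3*) and 1 that did not pass (*Ctcf*), so the letters occur with each outcome of the test. Capitals mark matches to GCCATNTT and to CCAAT on either strand. The *Ctcf* window is chr8:105636288-105636587 (plus strand), and that of *Smc3* is chr19:53600146-53600445 (plus strand). That of *Stag1* is chr9:100643198-100643497 (plus strand), and that of *Pds5b* is chr5:150673577-150673876 (plus strand). The *Stag1* window lies inside the span used here for the gene (100597798 to 100959375), past the start of that span.
Ctcf: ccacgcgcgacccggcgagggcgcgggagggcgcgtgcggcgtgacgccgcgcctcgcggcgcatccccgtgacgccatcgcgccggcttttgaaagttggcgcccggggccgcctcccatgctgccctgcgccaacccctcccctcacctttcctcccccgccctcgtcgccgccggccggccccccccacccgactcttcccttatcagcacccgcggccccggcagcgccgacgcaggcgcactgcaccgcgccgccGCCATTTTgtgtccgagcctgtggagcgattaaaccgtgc
Smc3: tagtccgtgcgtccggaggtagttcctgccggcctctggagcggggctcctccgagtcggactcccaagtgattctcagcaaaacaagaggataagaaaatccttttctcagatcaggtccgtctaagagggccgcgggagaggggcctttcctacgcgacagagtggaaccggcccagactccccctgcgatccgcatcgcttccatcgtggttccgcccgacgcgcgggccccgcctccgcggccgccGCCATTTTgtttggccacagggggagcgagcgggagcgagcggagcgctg
Stag1: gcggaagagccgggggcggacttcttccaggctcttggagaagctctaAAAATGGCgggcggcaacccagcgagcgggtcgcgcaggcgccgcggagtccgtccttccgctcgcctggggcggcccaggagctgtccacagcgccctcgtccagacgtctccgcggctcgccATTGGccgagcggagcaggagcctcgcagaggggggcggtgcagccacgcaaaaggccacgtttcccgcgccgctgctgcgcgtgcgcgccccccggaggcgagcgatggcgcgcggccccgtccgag
Pds5b: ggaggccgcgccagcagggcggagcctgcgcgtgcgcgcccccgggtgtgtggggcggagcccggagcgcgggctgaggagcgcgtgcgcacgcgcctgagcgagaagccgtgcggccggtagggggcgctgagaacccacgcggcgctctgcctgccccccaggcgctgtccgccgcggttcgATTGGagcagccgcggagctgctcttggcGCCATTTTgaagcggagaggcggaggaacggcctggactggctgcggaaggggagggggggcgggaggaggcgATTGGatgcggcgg

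Of the 3 genes of the ring, *Smc3* fell, and *Smc1a* and *Rad21* did not pass. *Smc1a* (chromosome X, 152016428 to 152062694) and *Smc3* (chromosome 19, 53600398 to 53645833) encode the partner SMC ATPases that form the long arms of the ring. *Smc3* was at 222.9 and 245.1 CPM in the PD100 libraries and at 163.1 and 175.8 CPM in the PD800 libraries. Both PD800 libraries lay below both PD100 libraries. The log2 fold change of -0.47 had a standard error of 0.087, and edgeR's test gave an adjusted p of 0.00702. Without PD800 replicate 1 it was -0.41, and without PD800 replicate 2 it was -0.51. The call did not hold in these fits, where the lone PD800 library is assumed to vary like the PD100 pair. Fewer of all tested genes passed in them too. The 40 tested genes nearest to *Smc3* had a median log2 fold change of -0.55, and 17 of them were lower, while the 562 tested genes of chromosome 19 had a median of -0.38. *Smc3* lay 0.08 above its neighbours. Whether the neighbourhood has a part in the fall was not tested.

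*Smc1a* was at 98.07 and 118.0 CPM in PD100 and at 114.6 and 127.1 CPM in PD800. The groups overlapped, and the log2 fold change of 0.16 (95% interval from edgeR -0.11 to 0.44) did not pass (adjusted p = 0.288). Without PD100 replicate 1 it was 0.037, and without PD100 replicate 2 it was 0.278. Its standard error of 0.112 was the largest of the 10, and the PD100 libraries had an SD of 14.1 CPM (n = 2). *Rad21* (chromosome 15, 51962240 to 51991747) encodes the kleisin that closes the ring and is cut by separase at anaphase. It was at 197.8 and 207.9 CPM in PD100 and at 252.1 and 266.4 CPM in PD800. Both PD800 libraries were above both PD100 libraries, by 0.35 on the log2 scale (interval 0.163 to 0.545), but the adjusted p of 0.0130 from edgeR's test missed 0.01. Without PD100 replicate 1 the difference was 0.32, and without PD100 replicate 2 it was 0.37. *Rad21* passed with DESeq2's Wald test at 0.344 (adjusted p = 0.00251). In edgeR it passed with no expression filter (adjusted p = 0.00140) or with protein-coding genes only (adjusted p = 0.00478). In all it passed in 7 of 15 alternatives, among them the fits without a PD100 library, where more of all tested genes passed. On log2(TPM + 1) the difference was smaller, at 0.129 (adjusted p = 0.265 from limma). Its 40 nearest tested genes had a median of -0.23. *Rad21* and *Smc3* stood at 41.09 and 39.39 against 39.6 and 39.2 TPM in the PD100 libraries, which overlapped, and at 43.64 and 44.52 against 23.28 and 24.34 TPM in the PD800 libraries.

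*Stag1* and *Stag2* encode alternative subunits that bind RAD21 and guide the ring to its sites, STAG1 being known for its role at telomeres and CTCF sites and STAG2 at chromosome arms and centromeres. In CPM they moved in opposite directions, while in TPM the groups overlapped for *Stag1*. *Stag1* (chromosome 9, 100597798 to 100959375) was at 95.72 and 106.5 CPM in PD100 and at 137.9 and 139.2 CPM in PD800. The groups did not overlap. It rose by 1.37-fold, or 0.455 on the log2 scale with a standard error of 0.0824, and edgeR's test gave an adjusted p of 0.00629. The rise was not seen in TPM, where the PD800 libraries lay between the PD100 libraries and limma gave 0.016 on log2(TPM + 1) (adjusted p = 0.944) and 0.0174 on log2(TPM + 0.1) (adjusted p = 0.943). *Stag2* (chromosome X, 42149317 to 42277185) was at 134.0 and 137.3 CPM in PD100 and at 86.55 and 89.48 CPM in PD800. Both groups were tight and far apart. The fall on the log2 scale was -0.62, with a standard error of 0.0715, and edgeR's test gave an adjusted p of 0.00110. The 40 tested genes nearest to *Stag2* had a median of 0.09, so that it lay -0.72 from them, and 1 of the 40 was lower. Those nearest to *Stag1* had a median of 0.10. Without PD800 replicate 1, *Stag1* was at 0.47 and *Stag2* at -0.59. Without PD800 replicate 2 they were at 0.45 and -0.64. Neither call held on 1 PD800 library, where fewer of all tested genes passed as well.

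Within each library, *Stag2* made up 55.57% and 45.06% of the summed TPM of both genes before ALT (PD100) and 35.56% and 36.02% after it (PD800). The mean share went from 50.31% ± 7.43 (SD, n = 2) to 35.79% ± 0.331, a difference of -14.52 percentage points. Without PD100 replicate 1 the difference was -9.27 points, and without PD100 replicate 2 it was -19.78 points. With 1 mean transcript length for each gene in all libraries, the shares were 53.40% and 51.36% against 33.94% and 34.48%, with an SD of 1.44 in PD100 cells. All PD800 shares were below all PD100 shares on both scales. An exact permutation test (two-sided) gave p = 0.333, which is the smallest p that 2 libraries against 2 allow.

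**Figure D2:**
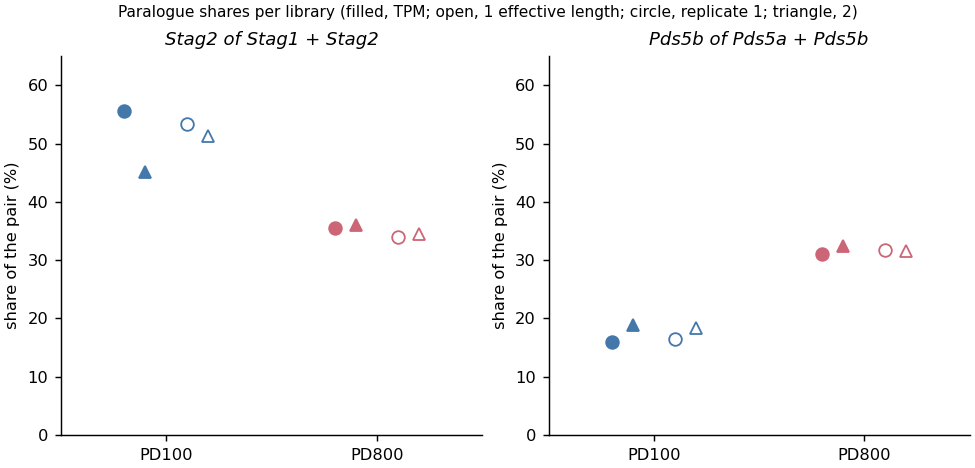
Share (%) of *Stag2* in the summed level of *Stag1* and *Stag2* (left) and of *Pds5b* in that of *Pds5a* and *Pds5b* (right) in each library, from TPM (filled) and with 1 effective length per gene (open), circles for replicate 1 and triangles for replicate 2. The *Stag2* share lies at 35.56% and 36.02% of TPM in PD800 cells, below both PD100 libraries, and the *Pds5b* share at 31.03% and 32.36%, above both.

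Neither the loader gene nor the release factor gene passed the test on counts. *Nipbl* (chromosome 15, 8290617 to 8444463), the loader, was at 115.8 and 121.7 CPM in PD100 and at 117.4 and 109.6 CPM in PD800. The groups overlapped in CPM, and the log2 fold change of -0.06 had an interval from -0.25 to 0.13 (adjusted p = 0.539 from edgeR's test). In TPM they did not overlap, at 10.39 and 9.89 in PD100 and at 8.73 and 7.71 in PD800. On log2(TPM + 1) *Nipbl* was at -0.27 and did not pass (adjusted p = 0.104 from limma). *Mau2*, the partner of *Nipbl* in the loader and named here for that role, was at -0.29 and did not pass (adjusted p = 0.0214). *Wapl* (chromosome 14, 34673928 to 34747983), the release factor, was at 308.4 and 317.1 CPM in PD100 and at 265.3 and 259.5 CPM in PD800. Both PD800 libraries were below both PD100 libraries. Its log2 fold change of -0.25 (interval -0.44 to -0.07) did not pass (adjusted p = 0.0353 from edgeR's test). It was -0.27 without PD100 replicate 1 and -0.26 without PD100 replicate 2. Without PD800 replicate 1 it was -0.26, and without PD800 replicate 2 it was -0.23. *Wapl* passed in 4 of 15 alternatives, both TPM scales and the fits without a PD100 library, where more of all tested genes passed. On the log2(TPM + 1) scale it was lower by more, at -0.59 (adjusted p = 0.00869 from limma), where the median of all genes was -0.12. The 40 tested genes nearest to *Wapl* had a median of -0.395, of which 10 were lower and 0 higher. The log2 ratio of *Nipbl* to *Wapl* in TPM was -2.26 and -2.32 at PD100, and it was -1.97 and -2.02 at PD800, a difference of 0.30 (exact permutation test, two-sided, p = 0.333, the smallest possible). With 1 mean transcript length for each gene in all libraries, the difference was 0.188.

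*Pds5a* and *Pds5b* encode close relatives that bind the ring beside WAPL. *Pds5a* (chromosome 5, 65605721 to 65698273) was at 236.5 and 225.9 CPM in PD100 and at 245.2 and 232.5 CPM in PD800. The groups overlapped, and the log2 fold change was 0.05 (interval -0.14 to 0.24, adjusted p = 0.655 from edgeR's test). *Pds5b* (chromosome 5, 150673739 to 150810690) was at 78.31 and 85.48 CPM in PD100 and at 191.1 and 179.9 CPM in PD800, with expected counts of 3161 and 2853 against 6869 and 5779. In CPM, each PD800 library was more than 2 times each PD100 library, and the groups did not overlap in counts or TPM either. On the log2 scale it rose by 1.18, with a standard error of 0.083 and an interval of 0.98 to 1.38, and edgeR's test gave an adjusted p of 0.000209. Of the 4 calls, it alone held under each of 15 alternatives, with log2 fold changes of 0.88 to 1.23. The *Pds5b* share of the summed TPM of both genes was 15.90% and 18.84% before ALT (PD100) and 31.03% and 32.36% after it (PD800) (exact permutation test, two-sided, p = 0.333, the smallest possible).

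*Pds5b* lies 0.89 Mb from the last annotated base of chromosome 5, nearer to a chromosome end than any other of the 10, and several of its neighbours were higher too. Of the 15 other tested genes in the last 2 Mb of that chromosome, 9 were higher, 1 was lower and 5 did not pass, with a median log2 fold change of 1.299. Protein-coding genes were 9 of the 15, and 6 of these 9 were higher. Of the rest, *Gm43807*, which was higher, lies inside *Pds5b* itself. This gene and the neighbours that follow were named after their values were seen. The nearest protein-coding one was *N4bp2l2*, at 115.9 and 112.9 CPM in PD100 and at 332.8 and 322.1 CPM in PD800 (log2 fold change 1.52). *Brca2*, which acts in homologous recombination and lies 1.132 Mb from the last annotated base, was at 150.4 and 138.3 CPM against 417.5 and 397.7 CPM (1.497). *Fry* (1.84) and *Rfc3* (1.29), a subunit of the clamp loader of replication that lies 0.051 Mb from the last annotated base, were also higher. *Stard13*, between *Pds5b* and *Rfc3*, was lower, at -1.19. The median was 0.53 from 2 to 3 Mb before the end (16 tested genes), 0.33 from 3 to 5 Mb (25 genes), 0.22 from 5 to 10 Mb (69 genes), 0.34 from 10 to 20 Mb (182 genes) and 0.06 beyond 20 Mb (999 genes). It did not fall evenly with distance, since the genes at 10 to 20 Mb were as high as those at 3 to 5 Mb. Against the median of its 40 nearest tested genes (0.62, with 19 higher and 2 lower), *Pds5b* was 0.56 higher. Those genes reached 3.31 Mb away, and at 1.18 *Pds5b* was below the median of 1.299 in the last 2 Mb. DNA copy number is not measured in these files, so more copies of this chromosome end and more RNA per copy cannot be told apart for *Pds5b*. *Pds5a*, on the same chromosome but 86.0 Mb from the end, had neighbours with a median of 0.07.

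**Figure D3:**
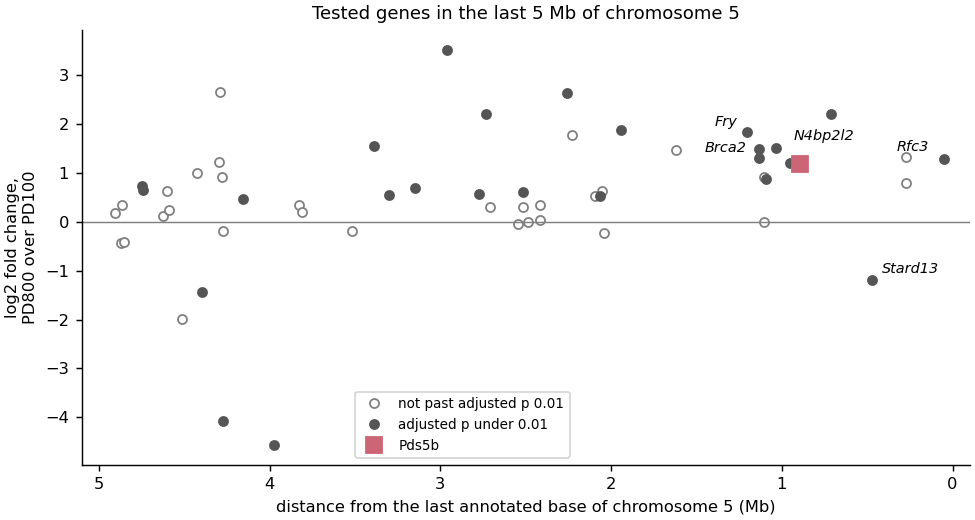
Log2 fold change from PD100 to PD800 (vertical axis) of each tested gene in the last 5 Mb of chromosome 5 against its distance from the last annotated base (horizontal axis, Mb), filled where the adjusted p was under 0.01. *Pds5b* (red square, 1.18) sits among *N4bp2l2*, *Brca2*, *Fry* and *Rfc3*, at 1.29 to 1.84, with *Stard13* at -1.19 on the other side of 0.

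*Ctcf* (chromosome 8, 105636568 to 105682922) was at 125.4 and 128.5 CPM in PD100 and at 142.5 and 142.1 CPM in PD800. Both PD800 libraries were slightly above both PD100 libraries, by 0.17 on the log2 scale (interval -0.01 to 0.34), which did not pass (adjusted p = 0.104 from edgeR's test). The direction depended on the scale: on log2(TPM + 1) *Ctcf* was at -0.11, beside a median of -0.12 over all tested genes, and on log2(TPM + 0.1) it was at -0.12, beside a median of -0.21. *Ctcf* and *Pds5a* were the 2 of the 10 with expected counts that were not whole, as happens when RSEM divides reads between genes. Exons of *Ctcf* overlap those of 2 genes on the other strand (none above 18.43 counts) and exons of *Pds5a* those of 2 (none above 207.1 counts), and whether the counting used strand is not given in the sources used here. Of 8 genes for proteins known as partners or relatives of CTCF, 3 were higher, 2 lower and 3 did not pass. Over all tested genes, 13.1% were higher and 15.4% lower. *Ctcfl*, the germline paralogue of *Ctcf*, had the highest log2 fold change, 2.49 (adjusted p = 0.00146 from edgeR's test), from a low level, since the PD100 libraries held 12 and 16 counts and the PD800 libraries 69.92 and 76.92. *Adnp*, which competes with CTCF at some sites, had the lowest, -1.03, and did not pass (adjusted p = 0.0290). Its expected counts were not whole, at 310.45 and 364.61 in PD100 and at 120.77 and 184.95 in PD800. *Yy1*, a zinc finger factor that joins enhancers and promoters, rose from 84.8 ± 2.32 to 151.3 ± 0.307 CPM (SD, n = 2), or by 0.835 on the log2 scale (adjusted p = 0.000394 from edgeR's test). It is named here, after its values were seen, because its motif was searched in the promoters.

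Among other genes of chromosome structure, members moved in both directions in most lists. Of all tested genes, 13.1% were higher and 15.4% lower, and nothing is read from the numbers called in these short lists. Of 10 cofactors of cohesin (the loader partner, acetyltransferases, a deacetylase, sororin, shugoshins, haspin, separase and securin), 1 was higher, 1 lower and 8 did not pass, with a median log2 fold change of -0.14. *Sgo2a*, a protector of centromeric cohesin, had the highest value at 0.54 (adjusted p = 0.00277), and *Pttg1*, which encodes the separase inhibitor securin, the lowest at -1.04 (adjusted p = 0.00137, both from edgeR's test). Of 4 genes for meiotic cohesin subunits, *Stag3* rose from 34.09 ± 2.58 to 78.63 ± 4.24 CPM (SD, n = 2), which is 1.205 on the log2 scale (adjusted p = 0.000259 from edgeR's test). *Rec8*, the meiotic kleisin, fell from 21.38 ± 2.98 to 9.51 ± 0.629 CPM, which is -1.17 on the log2 scale (adjusted p = 0.000897). *Smc1b* was at 0.52 and did not pass (adjusted p = 0.0341), and *Rad21l* was too low for a test, since PD100 libraries held 7 and 8 counts and PD800 libraries 2 each. Of 8 condensin genes, 3 were higher, 0 lower and 5 did not pass, from *Ncapg2* at 0.77 (adjusted p = 0.000714) to *Ncaph2* at -0.09 (adjusted p = 0.530). Of 12 genes of proliferation, 4 were higher, 1 lower and 7 did not pass, with *Mki67* the highest at 1.09 (adjusted p = 0.000491) and *Mcm5* the lowest at -0.45 (adjusted p = 0.00483). The median log2 fold change of the 12 was 0.066, and *Mki67* went from 385.1 ± 37.5 to 817.4 ± 19.5 CPM (SD, n = 2). The part of proliferation in the changes of cohesin genes was not tested.

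The transcripts of these genes are long, and the length that divides their reads in TPM varied between libraries in all except *Nipbl*. In the files, the mean transcript length of a gene is weighted by the isoform shares that RSEM estimated in each library. For *Stag1*, with 17 transcripts, it was 4400 bases in PD100 replicate 1 and 3370 in replicate 2, and 4664 and 4150 in the PD800 replicates. The largest was thus 38.4% above the smallest, so that *Stag1* stood at 17.56 and 23.28 TPM in PD100 and at 19.72 and 21.24 TPM in PD800. The PD800 values lay between those of PD100, although the CPM values did not overlap. The range was 15.9% for *Ctcf* and 11.6% for *Wapl*, and 0 for *Nipbl*, which has 1 transcript. With its length fixed, *Nipbl* was at -0.06 on counts and at -0.27 on log2(TPM + 1). The share of mitochondrial genes and small RNAs in all counts was 22.04% to 23.39% before ALT (PD100) and 27.69% to 28.31% after it (PD800), and its part in the TPM values was not tested. On log2(TPM + 1), *Ctcf*, *Smc1a* and *Pds5a* were below 0, where their CPM fold changes were above 0, and none of these 3 passed on either scale. Of the 10 genes, 9 were among the 25% of tested genes with the longest transcripts, of which 16.1% were higher and 20.8% lower. With the trend on length taken off, 2 were higher and 2 lower as before, with adjusted p-values up to 0.00836 from edgeR's test.

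**Figure D4:**
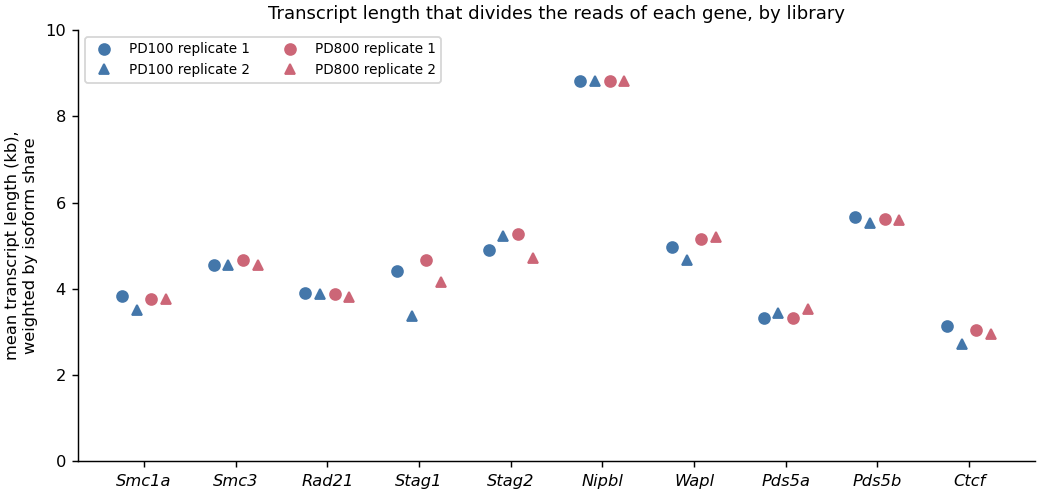
Mean transcript length (kb) of each gene in each library as the files give it, weighted by estimated isoform shares, with PD100 in blue, PD800 in red, circles for replicate 1 and triangles for replicate 2. *Stag1* varies most, from 3370 to 4664 bases, and PD100 replicate 2 is the lowest, while *Nipbl* is fixed at 8815 bases.

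**Figure D5:**
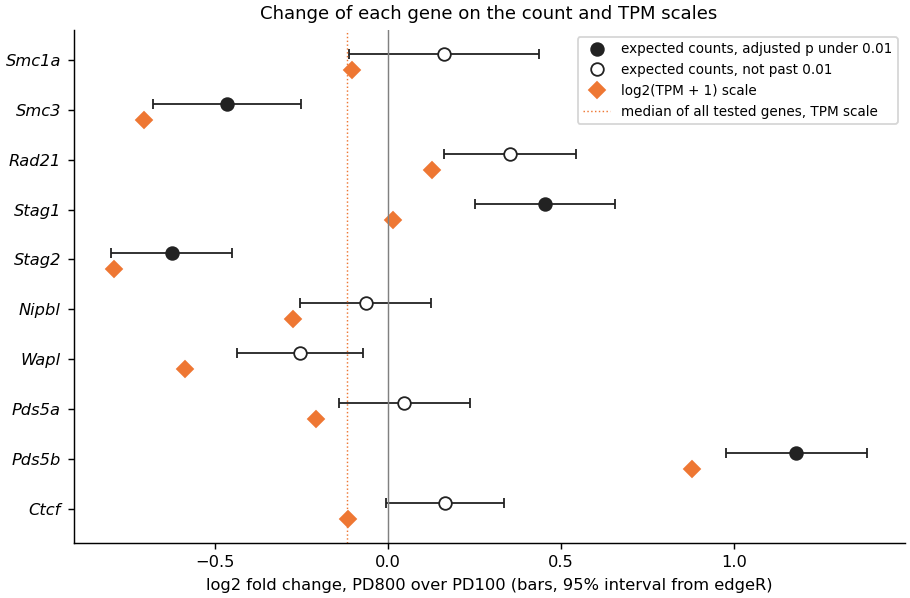
Log2 fold change from PD100 to PD800 of each gene by edgeR on expected counts (circles, filled where the adjusted p was under 0.01, with 95% intervals) and on the log2(TPM + 1) scale (diamonds), whose median over all tested genes, -0.12, is the dotted line. *Pds5b*, *Stag2* and *Smc3* lie on the same side of 0 on both scales, and *Stag1* goes from 0.46 to 0.02.

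Compared per length in TPM, *Pds5a* was the highest of the 10 and *Nipbl* the lowest at both time points. In PD100 cells the order was *Pds5a* (53.4 ± 7.25 TPM, SD, n = 2), *Wapl*, *Rad21*, *Smc3*, *Ctcf*, *Smc1a*, *Stag2*, *Stag1*, *Pds5b* (11.1 ± 0.099) and *Nipbl* (10.1 ± 0.354). Neighbours whose libraries overlapped were *Pds5a* and *Wapl*, *Rad21* and *Smc3*, *Smc1a* and *Stag2*, and *Stag2* and *Stag1*. In PD800 cells it was *Pds5a* (46.1 ± 5.73), *Rad21*, *Wapl*, *Ctcf*, *Smc3*, *Pds5b* (21.3 ± 1.73), *Smc1a*, *Stag1*, *Stag2* (11.4 ± 0.764) and *Nipbl* (8.22 ± 0.721). Here *Pds5a* overlapped *Rad21*, *Wapl* overlapped *Ctcf*, *Pds5b* overlapped *Smc1a*, and *Smc1a* overlapped *Stag1*. *Pds5b* thus moved from rank 9 to rank 6 and *Stag2* from rank 7 to rank 9.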

How the data were processed

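RNA of DKO741 cells was sequenced at PD100 and PD800 as paired-end 101 bp reads, with 2 libraries per group, which the paper calls biological duplicates. The authors aligned reads to mm10 with STAR 2.5.3a and deposited RSEM 1.3.0 expected counts, which are not scaled for depth. The authors also deposited TPM and FPKM values (FPKM was not used here) and mean transcript lengths per library. The annotation release is not given in the sources used here. Gene positions came from GENCODE M21 (GRCm38, the same assembly), with 15 tested genes not found there.

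Groups follow the population doubling that titles give. Expected counts were rounded and tested with the quasi-likelihood test of edgeR 4.0.16 under R 4.3.3, after filterByExpr (10 as minimum count) and TMM scaling, with Benjamini-Hochberg adjustment, and a gene passed at an adjusted p under 0.01. Named genes are the 10 members, for each other list the genes with the highest and lowest log2 fold change, every gene of a list of 4 or fewer, and *Terc*. Other genes are named after their values were seen. The members and lists were chosen with earlier results of these data known. Within-library ratios were compared with exact permutation tests, which cannot give a p below 0.333. Totals of 32454121 to 38492149 put the floor of 3 counts at 0.0743 to 0.0934 CPM, which covers counting error only. Replicates differed by more than sampling noise, with a chi-square per degree of freedom of 65.3 in PD100 and 10.1 in PD800. The scripts were tested on simulated data. The alternatives were DESeq2 1.42.0, its size factors, upper-quartile scaling, other filters, the replicate block, a length trend taken off, limma 3.58.1 on log2(TPM + 1) and log2(TPM + 0.1), protein-coding genes only, and each library left out. Sequences are from RefSeq.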

Additional observations from a re-analysis of the deposited data

How the results depend on the processing

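Over all tested genes 2513 were higher, against 3991 with no expression filter, 712 on log2(TPM + 1), 706 on log2(TPM + 0.1) and 1257 to 4079 with 1 library left out (4079 without PD100 replicate 1, 1257 without PD800 replicate 1). Lower genes numbered 2943, and 1567 to 4223 with 1 library left out (1567 without PD800 replicate 1, 1651 without PD800 replicate 2). Of the 10 genes, 2 were higher, against 1 on either TPM scale and 1 to 3 with 1 library left out, and 2 were lower, against 0 to 3 with 1 library left out, the 0 being without either PD800 library. A lone library is assumed to vary like the other group. The median log2 fold change of the 10 was 0.10, against -0.16 on both TPM scales (-0.1602 and -0.1637, where the medians of all tested genes were -0.1181 and -0.2145) and 0.0606 to 0.0925 with 1 library left out. The signs turned, without passing, for *Ctcf* (-0.114 and -0.117 on log2(TPM + 1) and log2(TPM + 0.1)), *Smc1a* (-0.104 and -0.108) and *Pds5a* (-0.2065 and -0.210, and -0.0084 to 0.092 with 1 library left out, the lowest without PD100 replicate 2). The cause was not tested. Of 150 alternative values for the 10 genes, 124 kept direction and call, 8 lost the call, 11 gained it and 7 changed sign.

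The labels number the replicates alike in both groups but do not say that a number marks a shared culture, and with 2 pairs the numbers do not pair the libraries. The deviations of same-numbered libraries correlated at 0.265. With the replicate block, 3854 genes were higher, and 3785 with the length trend also taken off. *Rad21* passed in both (0.354, adjusted p = 0.00244, and 0.370, adjusted p = 0.00187, from edgeR's test). The within-library shares and the *Nipbl* to *Wapl* ratio kept their direction under every alternative run. With 2 libraries per group, the p-values from edgeR, limma and DESeq2 borrow their spread from other genes.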
